A study of Mus musculus with 6 samples.

Results

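The genes described here are 10 markers of the retinal vessel wall, read in all 6 RNA-Seq libraries of a study of *Ezh2* overexpression after optic nerve crush (ONC). Of these, 7 are endothelial (*Cldn5*, *Pecam1*, *Cdh5*, *Kdr*, *Flt1*, *Vwf* and *Slco1a4*) and 3 belong to mural cells, the pericytes and smooth muscle cells that wrap the endothelium (*Pdgfrb*, *Rgs5* and *Acta2*). They were chosen by name and make up 10 of the 55573 gene identifiers in the deposited count table. All 10 had enough counts to be tested. Adult C57BL/6J mice of both sexes, per the study's methods, received AAV2-GFP (the control group, 3 libraries) or AAV2-Ezh2 (the *Ezh2* overexpression group, 3 libraries) in the vitreous. AAV2 is an adeno-associated virus used to carry genes into retinal cells, and *Ezh2* encodes the histone H3 methyltransferase of Polycomb repressive complex 2. Both groups underwent ONC 2 weeks after the injection, and retinas were taken 3 days after ONC. Living cells positive for CD90.2, the product of *Thy1*, were sorted from dissociated retinas to enrich retinal ganglion cells (RGCs). No group without ONC was analysed here, and how many animals contributed to a library, or whether the replicates came from separate animals, is not given in the sources used here. The p values below therefore measure only the spread between these libraries, which may be technical.

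The endothelium of retinal vessels forms the inner blood-retina barrier. Its cells are sealed by tight junctions, of which claudin-5 (*Cldn5*) is a main strand protein, and by adherens junctions built on VE-cadherin (*Cdh5*), and they carry transporters that move chosen solutes in and out of the neural tissue. Vascular endothelial growth factor (VEGF) acts on these cells through the receptor VEGFR2 (*Kdr*), while VEGFR1 (*Flt1*) binds the ligand tightly and signals weakly. Pericytes are recruited by PDGF-B from the endothelium through its receptor (*Pdgfrb*), and the retina has a high density of them. Expression of *Kdr* has also been described in Müller glia and neurons of the retina.

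The promoters of 4 endothelial members are shown because the levels of these genes, described below, differed widely: *Kdr* and *Flt1* were the most abundant members, *Cldn5* was scarce and *Slco1a4* was the scarcest. Each sequence is the 250 bases before the annotated start, from RefSeq on GRCm38.p6, read 5′ to 3′ on the gene's strand. The bases just after the start were found in a GENCODE transcript of the gene for *Kdr*, *Flt1* and *Cldn5*. For *Slco1a4* they were not, so that its start is less certain. Capitals mark GGAA or its reverse complement TTCC, the core bound by ETS factors, the family that holds the endothelial regulators ERG and FLI1. The intervals are chr5:75978456-75978705, minus strand, for *Kdr*, chr5:147726012-147726261, minus strand, for *Flt1*, chr16:18776597-18776846, plus strand, for *Cldn5*, and chr6:141856221-141856470, minus strand, for *Slco1a4*.
Kdr: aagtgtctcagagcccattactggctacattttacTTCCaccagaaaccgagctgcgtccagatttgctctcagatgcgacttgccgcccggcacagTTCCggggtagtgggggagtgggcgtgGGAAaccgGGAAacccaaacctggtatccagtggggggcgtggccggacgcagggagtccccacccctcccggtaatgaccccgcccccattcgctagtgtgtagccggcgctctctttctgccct
Flt1: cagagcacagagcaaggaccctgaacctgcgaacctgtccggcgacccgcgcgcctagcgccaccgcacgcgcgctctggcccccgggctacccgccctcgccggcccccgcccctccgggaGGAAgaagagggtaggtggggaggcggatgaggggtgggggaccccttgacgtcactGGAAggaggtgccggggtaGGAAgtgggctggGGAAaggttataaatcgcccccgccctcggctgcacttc
Cldn5: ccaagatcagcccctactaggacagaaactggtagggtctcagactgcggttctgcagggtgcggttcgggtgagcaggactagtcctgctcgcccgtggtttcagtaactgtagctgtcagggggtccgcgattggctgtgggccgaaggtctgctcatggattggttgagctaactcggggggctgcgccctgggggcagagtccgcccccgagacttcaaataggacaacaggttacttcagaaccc
Slco1a4: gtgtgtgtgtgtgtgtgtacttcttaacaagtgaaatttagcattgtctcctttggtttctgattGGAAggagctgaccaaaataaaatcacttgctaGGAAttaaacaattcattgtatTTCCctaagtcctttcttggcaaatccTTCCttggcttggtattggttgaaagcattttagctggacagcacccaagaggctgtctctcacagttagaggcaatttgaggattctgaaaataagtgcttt
The cores numbered 4 in *Kdr*, 4 in *Flt1*, 0 in *Cldn5* and 4 in *Slco1a4*, and 3 each in *Rgs5* and *Acta2*. Their number did not follow the level, which rests on *Slco1a4* alone, the gene with the less certain start. Of 32851 promoter windows of the same length, 93.4% held at least 1 core on either strand, the median was 3, and 33.4% held at least 4. CG dinucleotides numbered 16, 23, 12 and 0 in the windows shown, against a median of 6. These matches describe letters only. The table held promoters for 6 of the 10 members.

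The libraries held 30569933 to 35971192 counts, so that a count of 0 allows up to 3 counts, or 0.0834 to 0.0981 CPM (a gene's counts scaled to its library's total), for counting error only. *Ezh2* was at 28.8, 34.6 and 33.0 CPM in GFP replicates 1, 2 and 3, and at 78.0, 65.3 and 104.8 CPM in Ezh2 replicates 1, 2 and 3 (log2 fold change 1.17 ± 0.09, edgeR adjusted p = 1.56e-07, and 1.41 ± 0.18 and 0.00801 in all 6). Its exons overlap the antisense gene *Gm26625*, and use of strand in counting is not given. Across genes, log2 CPM of Ezh2 replicate 3 correlated with the other Ezh2 libraries at 0.971 to 0.972, while GFP libraries correlated at 0.985 to 0.987. The study left out 1 Ezh2 library, inferred from its heatmap columns to be replicate 3. The comparison below therefore rests on 5 libraries, and for each member and called gene the value from all 6 is given beside it. Genes counted as called when the quasi-likelihood test of edgeR gave an adjusted p below 0.05 together with more than a 1.5-fold change.

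The labelled cell type was checked against marker genes. *Pou4f2*, which defines most RGCs, had 0 to 3 counts per library, *Pou4f1* had 0 to 19, and *Rbpms*, a pan-RGC gene, was at 16.4 to 20.8 CPM. *Glul*, which encodes the glutamine synthetase of Müller glia, was at 5446 to 9900 CPM. The 9 RGC markers summed to 135.9 to 139.3 CPM in the GFP group and 153.2 to 167.5 CPM in the Ezh2 group, and 6 Müller glia and astrocyte markers summed to 14305 to 14808 and 9109 to 11684 CPM. *Thy1*, the gene of the antigen used for sorting, made up most of each RGC sum, at 87.2 to 92.6 and 98.9 to 113.8 CPM. T cell markers summed to 408.2 to 437.9 and 525.3 to 872.8 CPM, and macrophage and microglia markers to 2015 to 2242 and 2860 to 4265 CPM. Both *Thy1* and the T cell sum were highest in Ezh2 replicate 3. The part of cells other than RGCs in the *Thy1* values and the RGC sums was not tested. In such bulk samples, fewer cells of a type and less RNA per cell cannot be told apart.

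The 10 members fell into an abundant and a scarce set. The mural members were all abundant and the scarce members all endothelial, but the endothelial *Kdr* and *Flt1* were the most abundant. Levels between genes were compared as CPM per kilobase of exon, averaged over the 6 libraries. *Kdr* was highest at 242, followed by *Flt1* at 59.6, *Rgs5* at 39.5, *Pdgfrb* at 34.8 and *Acta2* at 9.48. *Pecam1* was at 2.45, *Cldn5* at 2.44, *Vwf* at 0.952, *Cdh5* at 0.695 and *Slco1a4* at 0.542. Over the 6 libraries, neighbours in this order overlapped except for *Kdr* with *Flt1*, *Pdgfrb* with *Acta2* and *Acta2* with *Pecam1*. *Kdr* and *Flt1* therefore held 98.1% to 99.1% of the summed CPM of the 7 endothelial members in every library. In CPM per kilobase, *Kdr* exceeded *Cdh5*, a gene largely restricted to endothelium, 273-fold to 429-fold. *Kdr* stood at the 99.6th percentile of level per kilobase among tested genes, and *Cdh5* at the 21.2nd.

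**Figure D1:**
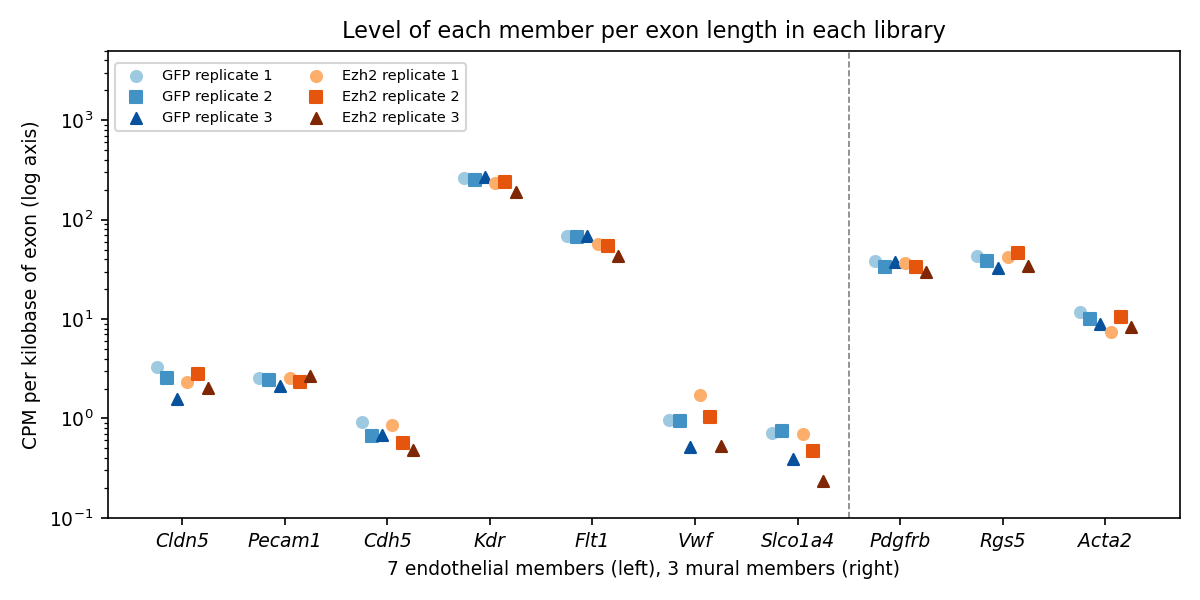
CPM per kilobase of exon (log axis) of the 10 members, with 1 point for each of the 3 GFP (blue) and 3 Ezh2 (orange) libraries. *Kdr*, with a mean of 242, lies far above *Pecam1*, *Cldn5*, *Vwf*, *Cdh5* and *Slco1a4*, all with means below 2.5, in every library.

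*Ezh2* overexpression was compared with the control group for each member, beginning with the VEGF receptors, which were lower in every Ezh2 library. Gene positions are on GRCm38, from first to last exon. *Flt1* (chr5:147561604-147726011, minus strand) was at 919, 906 and 926 CPM in GFP replicates 1, 2 and 3, and at 761, 727 and 588 CPM in Ezh2 replicates 1, 2 and 3. All 3 Ezh2 libraries lay below all 3 GFP libraries. Its log2 fold change was -0.29 ± 0.04 (SE, 5 libraries, edgeR adjusted p = 0.000255) and -0.37 ± 0.08 in all 6 libraries (edgeR adjusted p = 0.0400), so that it passed the p threshold in both fits but not the fold threshold. With all 6 libraries taken and any 1 other than Ezh2 replicate 3 left out, it did not pass (edgeR adjusted p = 0.0535 to 0.194), and its log2 fold change stayed between -0.36 and -0.43. *Kdr* (chr5:75932827-75978458, minus strand) was at 2372, 2276 and 2429 CPM in the GFP libraries and at 2131, 2184 and 1720 CPM in the Ezh2 libraries, again without overlap. Its log2 fold change of -0.12 ± 0.04 did not pass the test (edgeR adjusted p = 0.0859), nor did -0.19 ± 0.08 in all 6 libraries (edgeR adjusted p = 0.171). These 2 members were the ones whose 6 libraries separated by group, and 34.2% of all tested genes did so. In the 5 libraries, 7.07% of tested genes passed the adjusted p alone in the lower direction, and 1 of the 10 members, *Flt1*, was among them. In all 6 libraries this was 2.27% of tested genes and again *Flt1* alone among the members.

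The ratio of the receptors also separated the groups. *Kdr* to *Flt1* in CPM per kilobase was 3.85 ± 0.0843 (SD, n = 3) in the control group and 4.35 ± 0.152 (SD, n = 3) in the Ezh2 group, without overlap. This ratio was described after the values were seen and was not tested. The Müller glia genes moved beside the receptors: *Glul* was at 9900, 9540 and 9829 CPM against 6937, 6898 and 5446 CPM (log2 fold change -0.49 ± 0.04, edgeR adjusted p = 2.81e-07, and -0.57 ± 0.08 and 0.00934 in all 6). In the lower direction, 4 of the 6 glia markers passed the adjusted p in 5 libraries and 2 in all 6. Of all tested genes, 7.07% and 2.27% did so. *Gfap*, which reactive glia induce, was called higher at 1.01 ± 0.07 (edgeR adjusted p = 7.91e-08, and 0.97 ± 0.09 and 0.00194 in all 6), and *Pax2* of astrocytes differed by -0.31 ± 0.46 (edgeR adjusted p = 0.713). The part of these shifts in the VEGF receptor values was not tested.

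*Vwf* (chr6:125546774-125686679, plus strand), which encodes von Willebrand factor of endothelial storage granules and platelets, was the single member called. It was at 15.5, 15.01 and 8.33 CPM in GFP replicates 1, 2 and 3, and at 27.9, 16.5 and 8.56 CPM in Ezh2 replicates 1, 2 and 3. Ezh2 replicate 1 stood above every other library, and the replicates numbered 3 were low in both groups and nearly equal. The log2 fold change was 0.78 ± 0.21 in 5 libraries (edgeR adjusted p = 0.0178) and 0.47 ± 0.39 in all 6 (edgeR adjusted p = 0.473). The call also ended without Ezh2 replicate 1 (0.38, edgeR adjusted p = 0.334), without GFP replicate 3 (0.55, edgeR adjusted p = 0.0554), under DESeq2 (adjusted p = 0.226), and with edgeR's robust quasi-dispersion (adjusted p = 0.357). With *Vwf*, 1 of the 10 members was called higher and 0 were called lower, where the shares over the whole table were 2.45% higher, 1.27% lower and 3.73% in either direction. Unadjusted p values under 0.05 were found for 4 members, where 28.9% of tested genes had one, and DESeq2 called 0. In all 6 libraries edgeR called 0 members, 2 had an unadjusted p under 0.05 (25.5% of tested genes), and 2.41% of tested genes were called. Of the platelet markers, which are beside *Vwf* because platelets carry it, the 6 genes summed to 3.32 to 4.002 CPM in the GFP group and 6.18 to 9.70 CPM in the Ezh2 group, and *Ppbp* and *Gp1bb* were at 0 in every library. *Itga2b*, the platelet integrin gene, made up most of each sum at 3.21, 2.84 and 3.77 against 4.50, 4.995 and 7.15 CPM, higher in every Ezh2 library, but did not pass the test (0.55 ± 0.21, edgeR adjusted p = 0.0884, and 0.81 ± 0.24 and 0.0941 in all 6). *Pf4*, a platelet and macrophage chemokine, was called higher (2.69 ± 0.47, edgeR adjusted p = 0.000847, and 2.85 ± 0.45 and 0.0153 in all 6). Its counts were 4, 15 and 7 in the GFP libraries and 54, 68 and 82 in the Ezh2 libraries. *Pf4* entered the test only through the Ezh2 libraries, where it was high. The part of platelets in the *Vwf* values was not tested. The 6 red blood cell markers summed to at most 0.584 CPM.

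The junction and barrier members were scarce, and none passed the test. *Cldn5* (chr16:18776847-18778262, plus strand) was at 4.65, 3.63 and 2.25 CPM in the GFP libraries and at 3.32, 3.996 and 2.89 CPM in the Ezh2 libraries, so that the groups overlapped. Its log2 fold change was 0.07 ± 0.27 in 5 libraries and -0.01 ± 0.28 in all 6 (edgeR adjusted p = 0.894 and 0.991). *Cdh5* (chr8:104101625-104144511, plus strand) was at 3.89, 2.78 and 2.83 against 3.63, 2.37 and 2.03 CPM, with log2 fold changes of -0.07 ± 0.26 and -0.21 ± 0.27 (edgeR adjusted p = 0.893 and 0.650). In both groups replicate 1 was the highest. *Pecam1* (chr11:106654217-106750628, minus strand), the platelet endothelial cell adhesion molecule that also leukocytes carry, was at 15.8, 15.2 and 13.1 against 16.1, 14.6 and 16.7 CPM. It differed by 0.07 ± 0.11 and 0.15 ± 0.12 (edgeR adjusted p = 0.718 and 0.479). *Slco1a4* (chr6:141805440-141856199, minus strand), an organic anion transporter of the barrier, was at 4.55, 4.77 and 2.51 against 4.50, 3.03 and 1.501 CPM, with -0.06 ± 0.27 and -0.36 ± 0.39 (edgeR adjusted p = 0.917 and 0.587). For *Cldn5*, the highest and the lowest of the 6 libraries were both GFP libraries. Over the 6 libraries, *Cldn5*, *Cdh5* and *Slco1a4* had 54 to 151 counts per library. Their SEs were 0.26 to 0.27 in 5 libraries and 0.27 to 0.39 in all 6, against 0.04 and 0.08 for *Kdr*. Modest differences were not detectable at this depth.

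**Figure D2:**
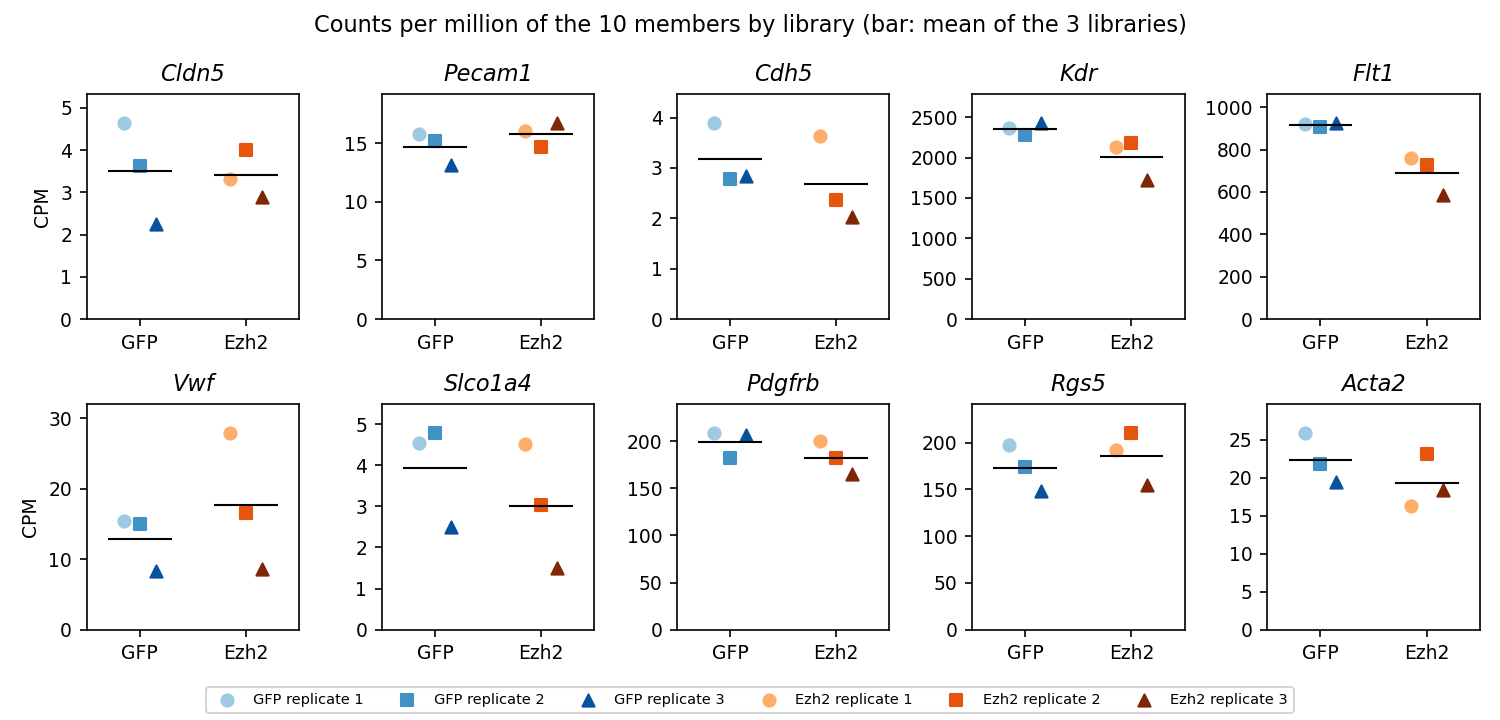
CPM of each member (vertical axes from 0) in the GFP and Ezh2 groups, with 1 point per library and a bar at the mean of the 3 libraries. The Ezh2 points lie below all GFP points for *Kdr* and *Flt1*, and overlap the GFP points for the other members.

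Mural members did not pass the test in either fit. *Pdgfrb* (chr18:61045150-61085061, plus strand) was at 208, 182 and 206 CPM in GFP replicates 1, 2 and 3 and at 200, 182 and 165 CPM in the Ezh2 libraries, which overlapped. Its log2 fold change was -0.05 ± 0.06 in 5 libraries and -0.09 ± 0.08 in all 6 (edgeR adjusted p = 0.660 and 0.509). *Rgs5* (chr1:169655501-169695813, plus strand), a regulator of G protein signalling and a common pericyte marker, was at 198, 174 and 148 against 193, 210 and 155 CPM, and differed by 0.23 ± 0.09 and 0.14 ± 0.13 (edgeR adjusted p = 0.0888 and 0.526). *Acta2* (chr19:34241090-34255590, minus strand), the smooth muscle actin of arterioles, was at 25.8, 21.8 and 19.5 against 16.3, 23.2 and 18.4 CPM, with -0.17 ± 0.14 and -0.17 ± 0.16 (edgeR adjusted p = 0.479 and 0.520). These p values do not show that the mural members were equal between the groups. The median log2 fold change of the 10 members was -0.05 in 5 libraries and -0.13 in all 6, against -0.0078 and 0.0083 over all tested genes.

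**Figure D3:**
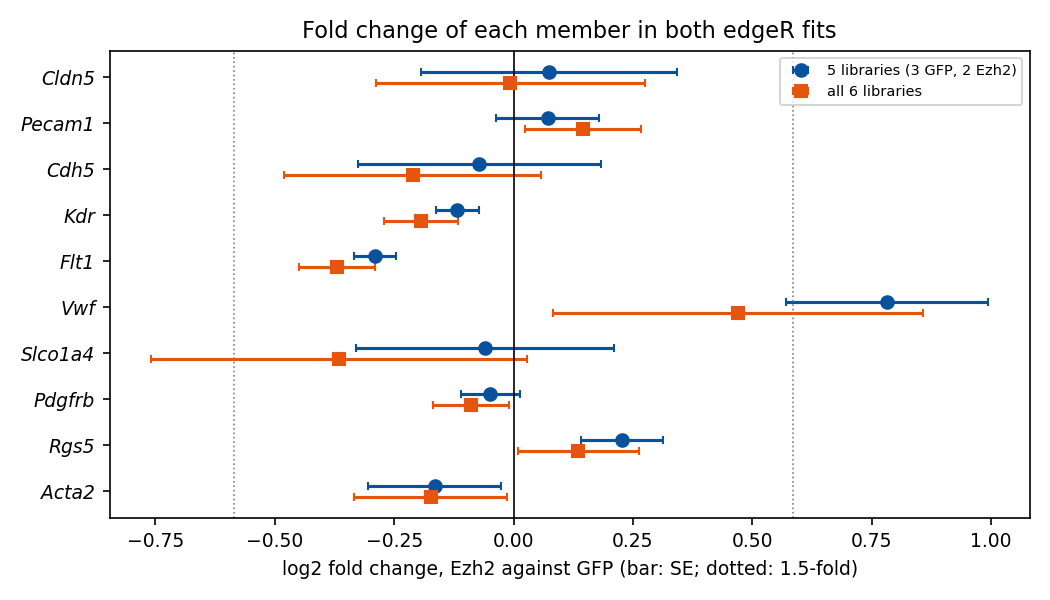
Log2 fold change of each member, Ezh2 against GFP (bars are SEs), in the fit of 5 libraries (circles) and of all 6 (squares), with dotted lines at 1.5-fold. *Vwf* passes a dotted line at 0.78 in 5 libraries and falls to 0.47 in all 6, and *Flt1* lies at -0.29 and -0.37.

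The summed level of the scarce endothelial genes was lowest in the library numbered 3 of each group. *Cldn5*, *Pecam1*, *Cdh5*, *Vwf* and *Slco1a4* summed to 44.3, 41.4 and 29.1 CPM in GFP replicates 1, 2 and 3 and to 55.4, 40.5 and 31.7 CPM in the Ezh2 libraries. Singly, *Cldn5*, *Vwf* and *Slco1a4* followed this, whereas *Pecam1* was highest in Ezh2 replicate 3 and *Cdh5* was lowest in GFP replicate 2. *Kdr* and *Flt1* were lowest in Ezh2 replicate 3 but highest in GFP replicate 3. Among the 18 endothelial identity genes, 9 were lowest in the library numbered 3 of both groups, as were 4 of the 10 members (*Cldn5*, *Vwf*, *Slco1a4* and *Rgs5*) and 16.2% of all tested genes. All 18 identity genes summed to 117.3, 114.2 and 94.8 CPM in the GFP libraries and to 122.2, 113.1 and 107.1 CPM in the Ezh2 libraries. Without the ETS factor genes *Fli1* and *Erg*, which blood cells use as well, the other 16 identity genes summed to 81.2, 76.1 and 64.6 against 74.3, 67.0 and 51.2 CPM. *Fli1* was higher in every Ezh2 library, below the fold threshold (0.45 ± 0.09, edgeR adjusted p = 0.00205, and 0.50 ± 0.10 and 0.0369 in all 6). *Erg*, at 0.314 to 0.586 CPM in 5 libraries, was at 7.90 CPM in Ezh2 replicate 3. T cell markers summed to 872.8 CPM in that library, against 408.2 to 551.2 CPM in the others, and their part in the *Erg* value was not tested.

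**Figure D4:**
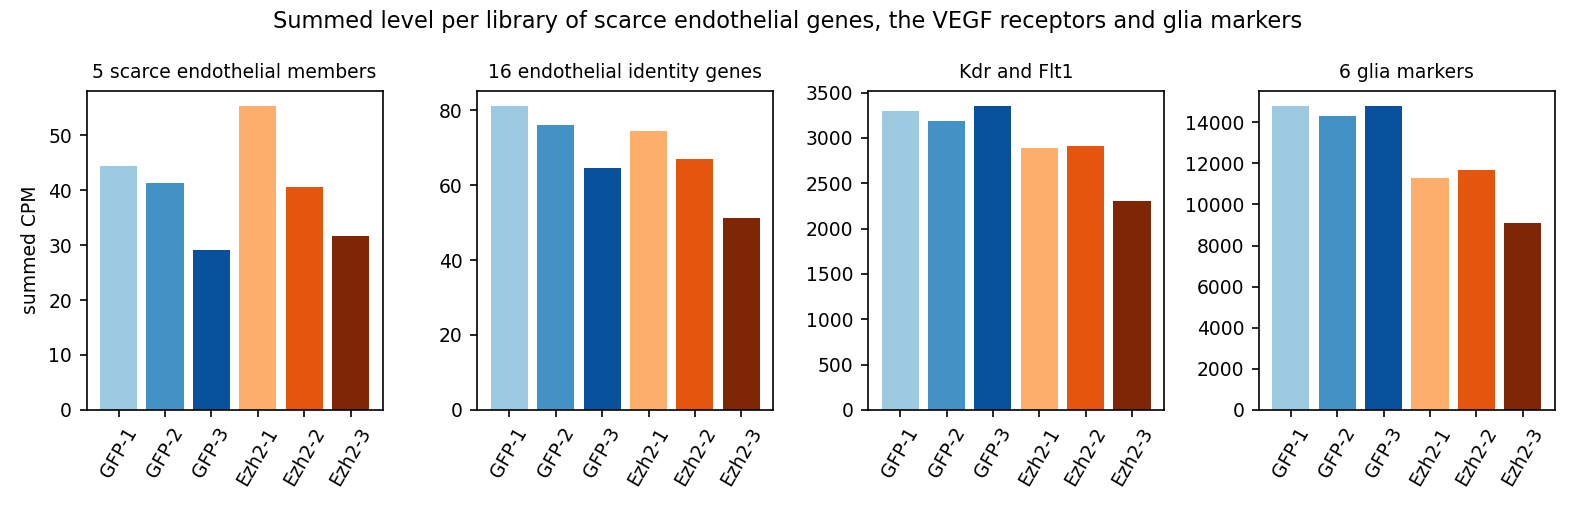
Summed CPM per library (bars from 0) of the 5 scarce endothelial members, of 16 endothelial identity genes (without *Fli1* and *Erg*), of *Kdr* and *Flt1*, and of 6 glia markers. The scarce sum is lowest in the library numbered 3 of each group (29.1 and 31.7 CPM), while the glia sum is lower in each Ezh2 library than in each GFP library.

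Around the members, 10 vascular lists with 108 genes were read in the same fits. In 5 libraries, 3 genes passed upward and 2 downward out of 105 tested (4.76%, against 3.73% of all tested genes), with a median log2 fold change of -0.03. In all 6 libraries, 2 were called higher and 1 lower of 103 tested (2.91%, against 2.41%). Both shares lie near those of all genes.

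Among the 12 blood-retina barrier transporters, 1 was called higher and 1 lower, beside 2.45% and 1.27% of all tested genes. By the adjusted p alone, 4 were lower and 2 higher in 5 libraries, where 7.07% of all tested genes were lower. In all 6 libraries 1 was lower and 0 were higher, where 2.27% of all tested genes were lower. The share of all tested genes higher by the adjusted p alone was not counted, here or for the lists below. *Slco1c1*, a thyroid hormone transporter of barrier endothelium and astroglia, was at 35.8, 32.1 and 35.9 CPM in the GFP libraries and at 19.9, 19.7 and 16.4 CPM in the Ezh2 libraries. The groups were far apart, and the log2 level fell by 0.79 ± 0.08 in 5 libraries and fell by 0.85 ± 0.10 in all 6 (edgeR adjusted p = 8.19e-06 and 0.00534). *Slc38a5*, an amino acid transporter, was called higher on 8, 1 and 0 counts against 22, 26 and 3 counts, with 2.84 ± 0.84 (edgeR adjusted p = 0.0298). It entered the test only through the Ezh2 libraries, where it was high, and it was too low to be tested in all 6. Without it, 2 of the vascular genes were called higher. None of the 10 junction genes was called, where *Tjp1*, the scaffold of tight junctions, differed by -0.10 ± 0.05 (edgeR adjusted p = 0.163). *Jam2* alone of them passed the adjusted p, below the fold threshold (-0.32 ± 0.05, edgeR adjusted p = 0.000647, and -0.41 ± 0.09 and 0.0436 in all 6). None of the 17 tested identity genes was called either, and *Tek*, the angiopoietin receptor, differed by 0.30 ± 0.31 (edgeR adjusted p = 0.571). Of the identity genes, *Fli1* alone passed the adjusted p, with the values given above.

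Of the 12 VEGF and angiopoietin ligands and coreceptors, *Apln*, a peptide of sprouting tip cells, was called lower, at 3.04, 3.07 and 4.10 against 1.55, 1.86 and 1.70 CPM (-0.98 ± 0.26, edgeR adjusted p = 0.0157; 0.0531 in all 6 libraries). *Vegfa*, named after its values were seen because it is the ligand of both receptors, was at 214, 224 and 220 CPM in the GFP libraries and at 162, 154 and 139 CPM in the Ezh2 libraries. It passed the adjusted p but not the fold threshold (-0.46 ± 0.05, edgeR adjusted p = 1.03e-05, and -0.50 ± 0.06 and 0.00801 in all 6 libraries). By the adjusted p alone, 3 of the 12 were higher and 2 lower in 5 libraries, where 7.07% of all tested genes were lower. The higher genes were *Pgf* (0.36 ± 0.09, edgeR adjusted p = 0.01005), *Nrp1* (0.35 ± 0.05, 0.000286) and *Nrp2* (0.30 ± 0.09, 0.03835), all below the fold threshold. In all 6 they were at 0.31, 0.27 and 0.22 and did not pass (edgeR adjusted p = 0.123 to 0.282). *Fzd4*, the norrin receptor of barrier endothelium, differed by -0.35 ± 0.15 (edgeR adjusted p = 0.120), and none of the 11 tested genes of the norrin and Wnt barrier pathway was called. Of these, *Reck* alone passed the adjusted p, below the fold threshold (-0.49 ± 0.06, edgeR adjusted p = 1.69e-05, and -0.51 ± 0.07 and 0.00849 in all 6). *Dll4*, the Notch ligand of tip cells, differed by -0.89 ± 0.42 (edgeR adjusted p = 0.179), with none of 7 called. By the adjusted p alone, *Jag1* was higher (0.35 ± 0.10, edgeR adjusted p = 0.0250, and 0.34 ± 0.11 and 0.106 in all 6) and *Unc5b* lower (-0.325 ± 0.07, edgeR adjusted p = 0.00335, and -0.36 ± 0.08 and 0.0445 in all 6). Of the leukocyte adhesion receptors, *Selplg* passed the adjusted p, below the fold threshold (0.18 ± 0.05, edgeR adjusted p = 0.0275, and 0.23 ± 0.07 and 0.0971 in all 6). *Icam1*, an adhesion receptor for leukocytes that glia and leukocytes also express, differed by 0.36 ± 0.05 (edgeR adjusted p = 0.000254, below the fold threshold, and 0.56 ± 0.14 and 0.0607 in all 6), with none of 5 called, while macrophage and microglia markers summed to 2015 to 2242 CPM in the GFP group and 2860 to 4265 CPM in the Ezh2 group. Of these markers *Lyz2* and *Cd68* were called higher (log2 fold changes 2.19 and 1.35, and 2.09 and 1.26 in all 6), as was *Cd8a* of the T cell markers (1.38, and 1.32 in all 6). In the junction, identity, norrin and Wnt, Notch and adhesion lists, where edgeR called 0 genes, 3 genes of each had an unadjusted p under 0.05, among 5 to 17 tested genes, beside 28.9% of all tested genes.

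The PDGF and pericyte list held 2 genes called higher of 14, where 2.45% of all tested genes were called higher. They encode both parts of the ATP-sensitive potassium channel of pericytes. By the adjusted p alone, 4 of the 14 were higher and 2 lower in 5 libraries, where 7.07% of all tested genes were lower. The share of all tested genes higher by the adjusted p alone was not counted. The lower genes were *Cox4i2* (-0.35 ± 0.07, edgeR adjusted p = 0.00169, and -0.41 ± 0.08 and 0.0353 in all 6) and *Mcam* (-0.20 ± 0.06, edgeR adjusted p = 0.0195, and -0.29 ± 0.09 and 0.1085 in all 6). *Abcc9* was at 29.96, 25.5 and 25.6 CPM in the GFP libraries and at 42.9, 43.6 and 33.6 CPM in the Ezh2 libraries. It rose by 0.69 ± 0.08 in 5 libraries and 0.60 ± 0.11 in all 6 (edgeR adjusted p = 3.23e-05 and 0.0268). *Kcnj8* was at 8.24, 8.82 and 7.16 against 12.5, 13.2 and 9.04 CPM, with 0.68 ± 0.13 and 0.55 ± 0.16 (edgeR adjusted p = 0.00153 and 0.0922), so that its call was not kept in all 6. *Abcc9* and *Kcnj8* separated by group in the 6 libraries, as 34.2% of all tested genes did, whereas *Pdgfrb* and *Rgs5* overlapped. In the same list *Anpep*, *Vtn*, *Higd1b* and *Foxc1* also separated upward, and *Mcam* and *Cox4i2* downward. *Anpep*, aminopeptidase N of pericytes and myeloid cells, was called higher in all 6 libraries alone (0.61 ± 0.11, edgeR adjusted p = 0.0268), and at 0.58 lay just under the fold threshold in 5. Whether *Abcc9*, *Kcnj8* and *Anpep* differed from the mural members in response was not tested. *Pdgfrb* exceeded *Higd1b*, a gene largely restricted to pericytes, 6.44-fold to 14.8-fold in CPM per kilobase. Of the smooth muscle contractile genes, 0 of 8 tested were called, and none had an unadjusted p under 0.05; *Myh11* differed by -0.26 ± 0.13 (edgeR adjusted p = 0.190). Of 9 vascular basement membrane genes, 0 passed and 1 reached an unadjusted p under 0.05, and *Col4a1*, the collagen IV chain, differed by -0.01 ± 0.06 (edgeR adjusted p = 0.956). Fibroblast markers, which share mural genes, summed to 129.2 to 141.7 CPM in the GFP group and 102.3 to 121.0 CPM in the Ezh2 group, and *Col1a1* was called lower (-0.69 ± 0.11, edgeR adjusted p = 0.000308; 0.0623 in all 6 libraries).

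**Figure D5:**
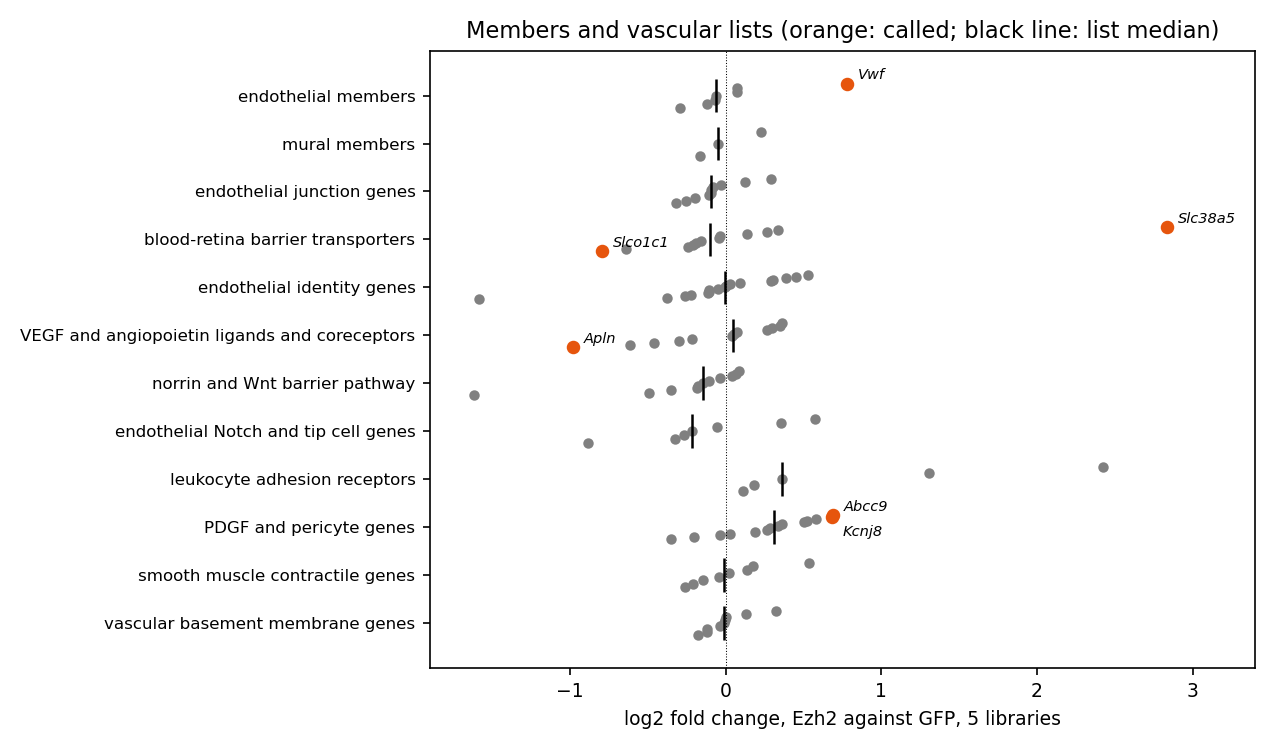
Log2 fold change in 5 libraries of the members and of the genes in 10 vascular lists, with called genes in orange and a black line at each list's median. Beside *Vwf*, 5 genes are called, *Abcc9*, *Kcnj8* and *Slc38a5* higher and *Slco1c1* and *Apln* lower.

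Genes whose log2 CPM followed the members most closely over the 6 libraries were sought among the genes with a mean of at least 100 counts. For the summed endothelial members, which *Kdr* and *Flt1* dominate, they were *Synm*, *Lrrc8b* and *Pnmal1* (Pearson r = 0.999, 0.999 and 0.998). For the summed mural members, they were *Ganab*, *Pck2* and *F11r* (0.995, 0.993 and 0.992). These values describe 6 libraries that share the contrast of groups and the low Ezh2 replicate 3.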

How the data were processed

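Cells sorted to enrich RGCs were sequenced as total RNA in 6 libraries. The authors deposited raw read counts per Ensembl gene, and the submitters' processing notes name STAR 2.7.0d and GRCm38. The counting program, annotation release and strand setting are not given in the sources used here. Of 55573 identifiers, 55480 matched GENCODE M21, the source of symbols and merged exon lengths, and every count column was matched to its sample through the labels, leaving 0 unmatched.

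In R 4.3.3, edgeR 4.0.16 removed low genes (filterByExpr), computed TMM factors and ran its quasi-likelihood F test with the group as sole term. Two-sided p values received Benjamini-Hochberg adjustment over all tested genes (20241 in 5 libraries, 19732 in all 6). SEs were taken from the F statistic. CPM used library totals (30569933 to 35971192 counts).

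The members and gene lists were chosen with earlier results of these data known. Named genes were the 10 members, up to 4 called genes per list by adjusted p or a defining gene where none was called, the 3 genes most correlated with the summed CPM of each cell type's members, and *Ezh2*. *Vegfa*, *Anpep*, *Erg*, *Fli1*, *Reck*, *Jam2*, *Cox4i2*, *Mcam*, *Vtn*, *Foxc1*, *Itga2b* and *Pax2*, and *Glul*, *Higd1b* and the RGC genes outside that rule, were named after their values were seen. So were *Pgf*, *Nrp1*, *Nrp2*, *Jag1*, *Unc5b* and *Selplg*.

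The alternatives tried were the fit of all 6 libraries, omission of any 1 library, a block on replicate number, DESeq2 1.42.0, limma-voom (limma 3.58.1), RLE factors, library totals, no filter, a filter at a mean of 50 counts, and no fold threshold. Robust estimation of the quasi-dispersion was added after seeing the data. The fit was tested on simulated counts. Pictures were drawn with matplotlib 3.10.9.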

Additional observations from a re-analysis of the deposited data

How the results depend on the processing

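Among the members the call of *Vwf* was lost under 13 of 22 alternatives, and *Flt1* passed the p threshold under 16. Members called numbered 0 (0 higher) in all 6 libraries, under DESeq2, under robust quasi-dispersion in 5 and in all 6 libraries (added after seeing the data), and 2 (1 lower) with no fold threshold, where *Flt1* was added at -0.291. Leaving out 1 library gave 0 to 1 called, 0 to 1 of them higher. Vascular list genes called numbered 2 higher and 1 lower in all 6 libraries, 5 higher under limma-voom, 13 higher and 11 lower with no fold threshold, and 0 to 4 higher and 0 to 2 lower when 1 library was left out. *Cldn5* changed sign to -0.00673 in all 6 libraries, with or without robust quasi-dispersion. When 1 library was left out, log2 fold changes that changed sign ranged from -0.244 to 0.327 for *Cldn5* (-0.165 without GFP replicate 3 and -0.0799 without Ezh2 replicate 2 of the 5 libraries, -0.131 without Ezh2 replicate 2 of all 6), -0.0036 to 0.205 for *Pecam1*, -0.47 to 0.196 for *Cdh5* (0.103 without GFP replicate 1 of the 5), -0.752 to 0.19 for *Slco1a4* (0.0537 and 0.0997 without GFP replicates 1 and 2 of the 5), -0.146 to 0.00586 for *Pdgfrb* and -0.46 to 0.0774 for *Acta2*; *Vwf* ranged from 0.00188 to 1.10. *Kdr* and *Flt1* stayed lower and *Rgs5* higher under all 22 alternatives. In 5 libraries *Kdr* passed the adjusted p, below the fold threshold, under DESeq2 (adjusted p = 0.044), limma-voom (adjusted p = 0.0347) and library totals (edgeR adjusted p = 0.0467). *Rgs5* did so with no filter (edgeR adjusted p = 0.000678) and without GFP replicate 1 of the 5 (edgeR adjusted p = 0.00857). The cause of these changes was not tested.

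Replicate numbers were shared between the groups, but over all tested genes same-numbered libraries did not deviate together (correlations of -0.00454, -0.0199 and -0.00991), so they are treated as sharing a number only, although 4 of the 10 members were lowest in number 3 of both groups. With the replicate number as a block, 0 members were called (0 higher) in 5 and in all 6 libraries, *Vwf* was at 0.509 (edgeR adjusted p = 0.00434, under the fold threshold) and 0.387 (0.256), *Cldn5* at -0.161 and *Pecam1* at -0.00309 in 5 libraries, and 0 vascular list genes were called higher and 1 lower in all 6.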
